A study of Mus musculus with 10 samples.

Results

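Vwf, Clu and Selp, with Fhl1, Itga2b, Itgb3, Pf4, Gp1bb, Gp9 and Mmrn1, are genes of platelets and of their precursors, the megakaryocytes, several of which are used to mark stem cells biased toward platelets. They were taken by symbol from the deposited count table, where all 10 were found among 24544 genes and all 10 had enough counts to be tested, among 12203 tested. The genes were chosen by name, but with their NEO1+ to NEO1- differences in these same counts already known, above all for Clu, Selp, Vwf and Fhl1. Their differences are therefore a description and carry no test. The table held 10 libraries of bulk RNA-seq from long-term hematopoietic stem cells of mice, 5 from NEO1+ and 5 from NEO1- cells. The cells came from bone marrow of Hoxb5-mCherry reporter mice of 2 to 3 months. The strain label names the reporter allele, and both fractions carried it. Both were sorted as negative for lineage markers, CD34, CD48 and FLK2 and as positive for cKIT, SCA1, CD150 and the Hoxb5 reporter, and differed only in surface neogenin-1. Each library was made from 250 to 500 cells of 2 pooled mice, so variation between single mice was not measured. The labels do not say whether the pools of different libraries held different mice. The series title poses the question, namely whether neogenin-1 separates myeloid-biased from balanced stem cells among those with Hoxb5.

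Platelets stop bleeding by sticking to a damaged vessel and to each other. Von Willebrand factor tethers them through the glycoprotein Ib-IX-V complex, and the integrin of the Itga2b and Itgb3 chains then binds fibrinogen. Granules store P-selectin, platelet factor 4, multimerin 1 and von Willebrand factor until release. A share of hematopoietic stem cells already transcribes such genes, and reporters of Vwf and antibodies to the Itga2b product have been used to separate stem cells with a platelet-biased output. Endothelial cells also make von Willebrand factor, P-selectin and multimerin 1.

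The sequences before the transcription starts of 4 members are shown because megakaryocyte genes are commonly controlled by GATA, ETS and RUNX factors, and because these 4 include members that were higher (Selp, Fhl1) and lower (Pf4, Gp9) in NEO1+ libraries. Promoters from RefSeq, on build GRCm38.p6, were matched for 7 of the 10 members. Each sequence below covers the 250 bases before a start, read 5′ to 3′ on the strand of the gene, and overlaps no exon of the GENCODE annotation. Capitals mark 3 short motifs. For GATA factors the letters searched were GATAA, which read TTATC when the motif is on the other strand. For ETS factors they were AGGAAG, which then read CTTCCT. For RUNX factors they were TGTGGT, which then read ACCACA.
Selp, chr1:164115014-164115263, plus strand: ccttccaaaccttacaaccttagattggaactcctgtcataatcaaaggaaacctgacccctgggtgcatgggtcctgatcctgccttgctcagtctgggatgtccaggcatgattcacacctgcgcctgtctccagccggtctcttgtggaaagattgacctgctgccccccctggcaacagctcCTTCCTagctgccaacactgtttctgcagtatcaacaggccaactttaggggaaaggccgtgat
Fhl1 (a second start), chrX:56786277-56786526, plus strand: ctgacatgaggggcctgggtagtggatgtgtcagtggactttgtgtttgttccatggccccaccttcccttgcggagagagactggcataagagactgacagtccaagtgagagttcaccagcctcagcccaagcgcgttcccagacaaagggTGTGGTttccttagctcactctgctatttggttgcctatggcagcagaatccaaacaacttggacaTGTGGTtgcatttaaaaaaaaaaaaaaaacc
Pf4, chr5:90772185-90772434, plus strand: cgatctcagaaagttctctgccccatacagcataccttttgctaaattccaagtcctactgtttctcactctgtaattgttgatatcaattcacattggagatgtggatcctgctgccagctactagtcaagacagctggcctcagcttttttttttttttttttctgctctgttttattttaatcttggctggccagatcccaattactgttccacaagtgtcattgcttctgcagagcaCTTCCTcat
Gp9, chr6:87777820-87778069, plus strand: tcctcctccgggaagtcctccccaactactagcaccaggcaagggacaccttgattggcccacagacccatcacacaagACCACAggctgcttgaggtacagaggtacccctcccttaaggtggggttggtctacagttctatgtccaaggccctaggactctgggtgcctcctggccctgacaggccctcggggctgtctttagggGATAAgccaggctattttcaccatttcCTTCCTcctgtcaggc
The Selp window held 1 ETS match, beginning 64 bases before the start, and the Pf4 window 1, beginning 9 bases before it. In the Gp9 window there was 1 match of each kind, at 171 (RUNX), 43 (GATA) and 16 (ETS) bases before the start. The Fhl1 window held 2 RUNX matches, at 97 and 31 bases. Of the windows not printed, that of Mmrn1 held 1 GATA match (33 bases before the start) and that of Itga2b held 2 ETS matches (125 and 43 bases). The Mmrn1 window (60944067 to 60944316) and the Fhl1 windows lie inside the loci that GENCODE gives for these genes, not before them. In all, 8 windows of the 7 members were searched, and 2 of them, that of Gp1bb and that of the other Fhl1 start, held no match. Those 2 and the Itga2b window overlap annotated exons and are not printed. No matches overlapped. Of 32817 RefSeq promoter windows of the same length, 22.6% held the GATA letters, 29.5% the ETS letters and 14% the RUNX letters, so a match in a window is common. The 4 printed windows were picked to include genes of both directions, and each held a match, so nothing about direction is read from them.

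The libraries held 21.2 to 38.9 M counts (M, mega). Levels are given as CPM, counts per M of the library size scaled by TMM, a factor that aligns the bulk of genes between libraries. Without molecular identifiers, PCR copies are counted as reads, so the intervals and floors below account for counting error alone. At a floor of 3 counts, the limit that a count of 0 allows, the libraries reached 0.0699 to 0.144 CPM. More genes were detected in NEO1+ libraries (12800 to 13808) than in NEO1- libraries (11477 to 13147), and the ribosomal RNA precursor Rn45s took 27.9 to 37.7% and 30.7 to 42.4% of counts. The sorting marker Neo1, the receptor gene itself, was at 64.8, 48.6, 59.6, 12.5 and 52.1 CPM in NEO1+ libraries 1 to 5 and at 18.9, 11.5, 12.2, 4.56 and 6.15 CPM in NEO1- libraries 1 to 5. NEO1+ library 4 thus lay within the NEO1- range for the transcript it was sorted on, and the members' log2 fold changes without it are given below. A list of 11 stem cell markers summed to 2300 to 2590 CPM (NEO1+) and 2190 to 2750 CPM (NEO1-). The reporter's own gene, Hoxb5, was low, at 2.45 to 4.91 CPM (NEO1+) and 0 to 2.43 CPM (NEO1-), with no count in NEO1- library 3.

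Of the 10 platelet and megakaryocyte genes, 8 had a higher and 2 a lower mean in NEO1+ libraries, and the median log2 fold change (NEO1+ over NEO1-) was 0.63, beside 0.01 for all genes tested, of which 51.0% were above 0. Selp, Clu and Gp1bb stood highest with mean levels 4.30, 3.39 and 3.70 times as high. Vwf, Fhl1, Itga2b and Itgb3 formed a middle group, Mmrn1 differed little, and Pf4 and Gp9 had slightly lower means. For Pf4, NEO1+ libraries 1 to 4 were below every NEO1- library, and NEO1+ library 5 was above all of them. In 3 of 10 members (Selp, Clu and Fhl1) every NEO1+ library was above every NEO1- library. This held for 1.35% of all genes tested, and separation in either direction for 2.48%. No gene of the table passed the edgeR quasi-likelihood test at a Benjamini-Hochberg adjusted p of 0.05 (a share of 0%, members included). DESeq2 called 146 genes, 4 of them members, and limma-trend called 1, which was a member. By edgeR, 5 of 10 members were among the genes with an unadjusted p under 0.05, which numbered 806, or 6.60% of all genes in either direction and 3.11% on the higher side. These counts follow from how the genes were chosen, and nothing is read from them. In simulated data of this design with 11844 genes, 64.2% of those changed 4-fold were recovered at the adjusted threshold. With library totals in place of TMM, the median of all genes moved from 0.01 to 0.16, and all 10 members kept their direction.

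**Figure D1:**
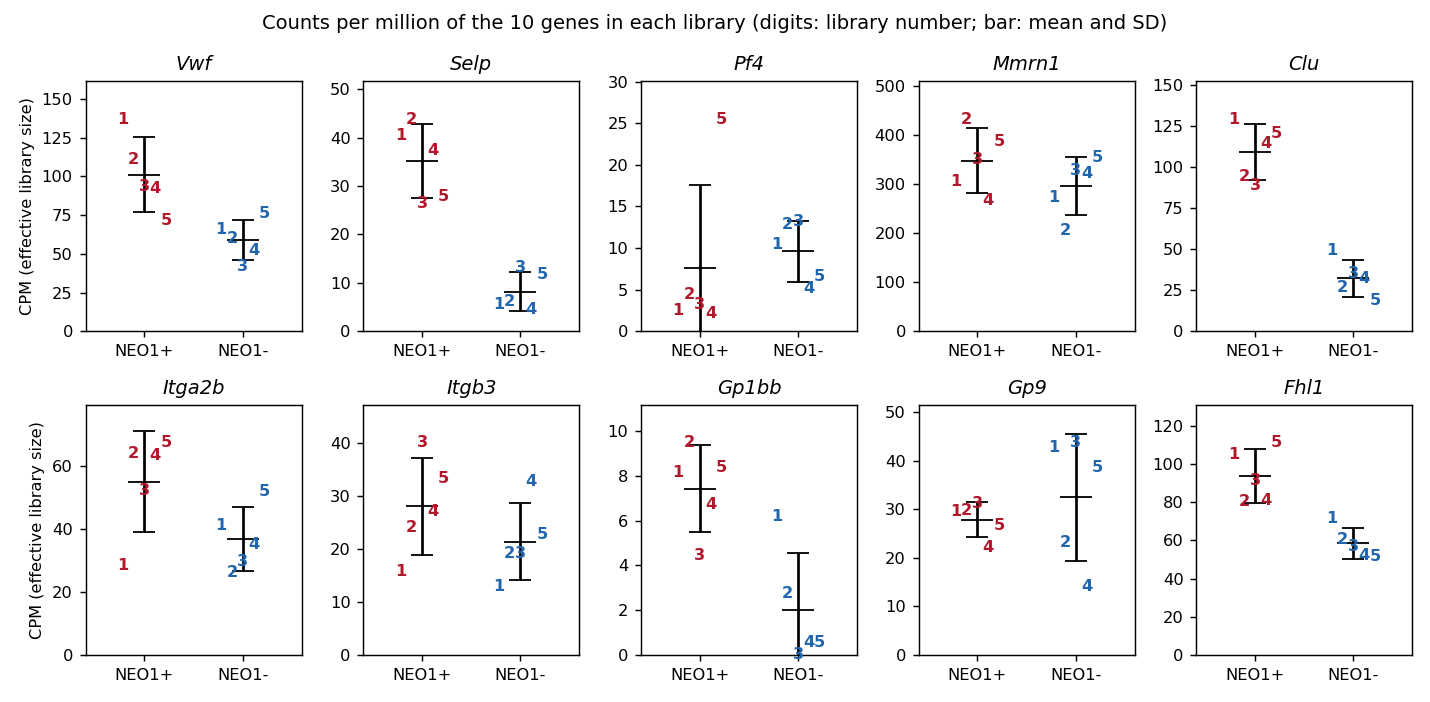
CPM of each of the 10 genes (vertical axes, each from 0) in NEO1+ and NEO1- libraries; each digit is 1 library, and bars give the mean and SD of 5 libraries, cut at 0 for Pf4 and Gp1bb. Selp, Clu and Fhl1 show no overlap, while a single NEO1+ library, at 25.5 CPM, sets the mean of Pf4.

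Among secreted and granule proteins, Selp encodes P-selectin, which moves from granules to the platelet surface and binds leukocytes. Its gene lies on chromosome 1 (GRCm38, 164115264 to 164150026, plus strand, 17 merged exons). It was at 40.4, 43.8, 26.3, 37.3 and 27.9 CPM in NEO1+ libraries 1 to 5 and at 5.48, 6.09, 13.2, 4.41 and 11.7 CPM in NEO1- libraries 1 to 5. The lowest NEO1+ library was therefore at 26.3 CPM and the highest NEO1- library at 13.2 CPM. Means were 35.2 ± 7.70 and 8.18 ± 3.99 CPM (SD, n = 5 each), or 2.10 as a log2 fold change (SE 0.37; 2.08 without NEO1+ library 4). Of its exonic bases, 438 are shared with Gm16548, a non-coding gene on the opposite strand. Another gene on that strand, Gm16587, which the count table does not hold, shares 186 exonic bases with Selp. Strand use in counting is not given in the sources used here, so reads of Selp and of these genes cannot be told apart there.

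Clu encodes clusterin, a secreted chaperone that platelets carry in their granules, and lies on chromosome 14 (65968483 to 65981547, plus strand). NEO1+ libraries 1 to 5 held 129, 94.2, 88.8, 114 and 120 CPM of Clu, and NEO1- libraries 1 to 5 held 49.0, 26.3, 34.9, 32.2 and 18.6 CPM. The lowest NEO1+ library, at 88.8 CPM, was above the highest NEO1- library, at 49.0 CPM. Means were 109 ± 17.1 and 32.2 ± 11.3 CPM (SD, n = 5 each), and the log2 fold change was 1.76 (SE 0.24; 1.75 without NEO1+ library 4).

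Vwf, the gene of von Willebrand factor on chromosome 6 (125546774 to 125686679, plus strand, 56 merged exons), was at 137, 111, 93.8, 92.1 and 71.8 CPM in NEO1+ libraries 1 to 5. NEO1- libraries 1 to 5 held 65.5, 59.6, 41.9, 51.9 and 75.9 CPM. Only NEO1+ library 5 and NEO1- library 5 kept the groups from separating. The means of 101 ± 24.2 and 58.9 ± 12.9 CPM (SD, n = 5 each) gave a log2 fold change of 0.78 (SE 0.20; 0.81 without NEO1+ library 4).

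Mmrn1 encodes multimerin 1, a granule protein that binds coagulation factor V, and lies on chromosome 6 (60924976 to 60989378, plus strand). It ranged from 266 to 432 CPM in NEO1+ and from 205 to 354 CPM in NEO1- libraries, with means of 348 ± 65.7 and 296 ± 58.9 CPM (SD, n = 5 each). The groups overlapped over most of their range, and the log2 fold change was 0.23 (SE 0.16; 0.31 without NEO1+ library 4). Pf4, the gene of the granule chemokine platelet factor 4 on chromosome 5 (90772435 to 90773383, plus strand), was at 2.45, 4.45, 3.26, 2.10 and 25.5 CPM in NEO1+ libraries 1 to 5. NEO1- libraries 1 to 5 held 10.4, 12.8, 13.2, 5.14 and 6.55 CPM. NEO1+ libraries 1 to 4 were thus all below the lowest NEO1- library, and NEO1+ library 5 was above the highest. That library held 878 Pf4 counts, or 26.7 per M of its total (95% Clopper-Pearson interval 25 to 28.6). NEO1+ library 1 held 51 counts, or 2.41 per M (1.79 to 3.17). The error of counting reads was small beside this spread, but the intervals do not cover PCR copies of few molecules. The log2 fold change of Pf4 was -0.35 (SE 0.76) with all libraries, -1.65 when NEO1+ library 5 was left out and -0.11 when library 4 was.

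The surface receptor subunits form pairs. Itga2b (CD41, chromosome 11, 102453297 to 102470122, minus strand) and Itgb3 (CD61, chromosome 11, 104608000 to 104670476, plus strand) encode the chains of the fibrinogen receptor. Itga2b was at 28.3, 64.0, 52.4, 63.4 and 67.4 CPM in NEO1+ libraries 1 to 5 and at 41.2, 26.3, 29.8, 35 and 52.1 CPM in NEO1- libraries 1 to 5. NEO1+ library 1 was among the low NEO1- values, and the other 4 NEO1+ libraries were above all NEO1- libraries (lowest 52.4 against highest 52.1 CPM). Its log2 fold change was 0.58 (SE 0.27; 0.52 without NEO1+ library 4). Itgb3 was at 28.0 ± 9.23 CPM (NEO1+) and 21.4 ± 7.27 CPM (NEO1-; SD, n = 5 each; log2 fold change 0.39, SE 0.33, and 0.40 without NEO1+ library 4), ranging from 15.7 to 40.0 and from 13 to 32.8 CPM. The groups overlapped widely for Itgb3. The ratio of Itga2b to Itgb3 counts per exon length was 2.19 ± 0.561 (NEO1+) and 2.05 ± 0.913 (NEO1-; SD, n = 5 each), so the balance of the 2 chains differed by less than the spread between libraries.

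Gp1bb (chromosome 16, 18620317 to 18622403, minus strand) and Gp9 (chromosome 6, 87778072 to 87779768, plus strand) encode subunits of the receptor for von Willebrand factor, and here they went apart. Gp1bb was at 8.16, 9.47, 4.45, 6.72 and 8.36 CPM in NEO1+ libraries 1 to 5, and at 6.18, 2.76, 0, 0.547 and 0.562 CPM in NEO1- libraries 1 to 5. NEO1- library 1 lay among the NEO1+ values, whereas NEO1- libraries 3 to 5 were near 0, with 0, 18 and 17 counts. For the count of 0 in NEO1- library 3 the floor of 3 counts was 0.102 CPM. Means were 7.43 ± 1.93 and 2.01 ± 2.56 CPM (SD, n = 5 each), and the log2 fold change of 1.89 had an SE of 1.20; it was 2.94 when NEO1- library 1 was left out and 1.92 when NEO1+ library 4 was. Gp9, in contrast, was at 29.5, 29.7, 31.3, 22.1 and 26.6 CPM in NEO1+ libraries and at 42.8, 23.2, 43.7, 14.2 and 38.6 CPM in NEO1- libraries. The NEO1+ libraries all fell inside the wider NEO1- range, and the log2 fold change was -0.22 (SE 0.31; -0.15 without NEO1+ library 4).

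Per exon length, Gp1bb counts were 0.115 ± 0.0312 times (NEO1+) and 0.0267 ± 0.0273 times (NEO1-) the Gp9 counts (SD, n = 5 each). NEO1+ library 3 (0.0601) and NEO1- library 1 (0.0609) met at the edge of the groups. Of the 2087 merged exonic bases of Gp1bb, 1902 are shared with Sept5, a septin gene on the same strand. Another gene on that strand, Gm49601, which the count table does not hold, shares 867 of them. The Gp1bb level, its ratio to Gp9 and the split of reads with Sept5 therefore depend on the counting. Sept5 was low in the table, at 1.43 ± 0.349 CPM (NEO1+) and 0.527 ± 0.722 CPM (NEO1-; SD, n = 5 each), with 0 CPM in NEO1- libraries 1 to 3. The part of shared reads in the Gp1bb values was not tested.

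**Figure D2:**
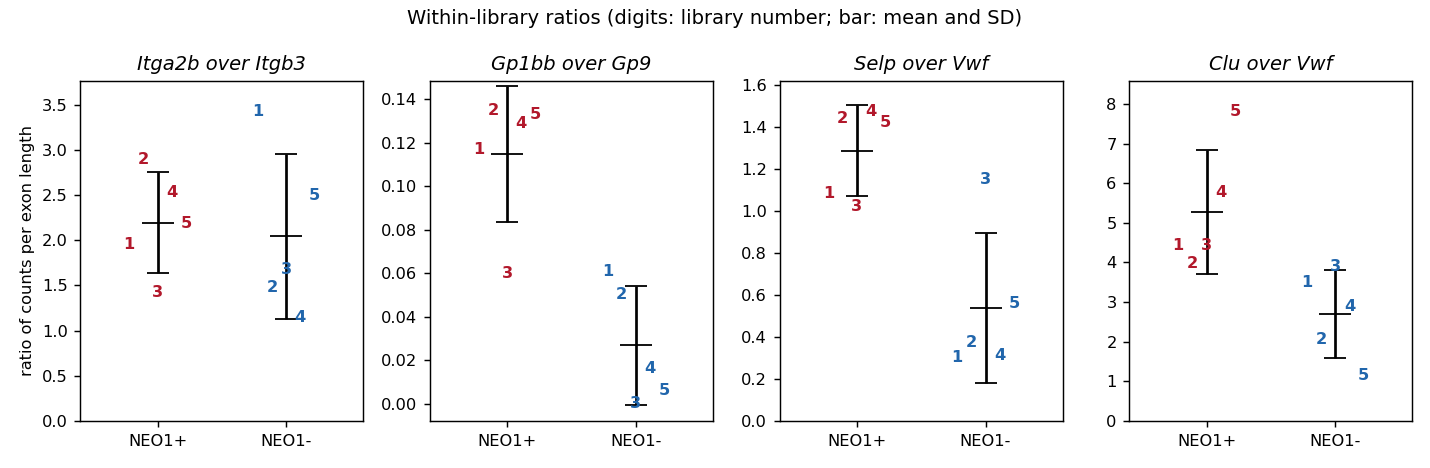
Ratio of counts per merged exon length between pairs of the genes within each library (digits, library number; bars, mean and SD of 5 libraries). Itga2b over Itgb3 overlaps between groups, Gp1bb over Gp9 overlaps only at NEO1+ library 3 (0.0601) and NEO1- library 1 (0.0609), and Clu over Vwf does not overlap.

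Fhl1, a LIM-domain protein of the cytoskeleton and nucleus, is the only intracellular member (chromosome X, 56731787 to 56793346, plus strand). It was at 105, 80.2, 91.3, 80.6 and 111 CPM in NEO1+ libraries 1 to 5 and at 71.3, 60.3, 56.8, 52.1 and 51.5 CPM in NEO1- libraries 1 to 5. The groups did not overlap, with 80.2 CPM as the lowest NEO1+ and 71.3 CPM as the highest NEO1- value. The spread was the narrowest of the members relative to the level in NEO1- libraries (SD 0.19 on the log2 scale; 0.21 in NEO1+). The log2 fold change was 0.68 (SE 0.16; 0.73 without NEO1+ library 4).

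The size of the difference was not shared by the members. Ratios within a library do not depend on library scaling. Clu counts per exon length were 5.28 ± 1.56 times those of Vwf in NEO1+ and 2.70 ± 1.11 times in NEO1- libraries (SD, n = 5 each), with no overlap (3.98 to 7.80 and 1.15 to 3.89). Selp over Vwf was 1.29 ± 0.218 and 0.539 ± 0.357 (SD, n = 5 each), with NEO1- library 3 (1.15) inside the NEO1+ range of 1.02 to 1.47. No single library led the group either. NEO1+ libraries 2 and 5 each held the highest NEO1+ value of 3 members, libraries 1 and 3 of 2 members, and library 4 of none.

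**Figure D3:**
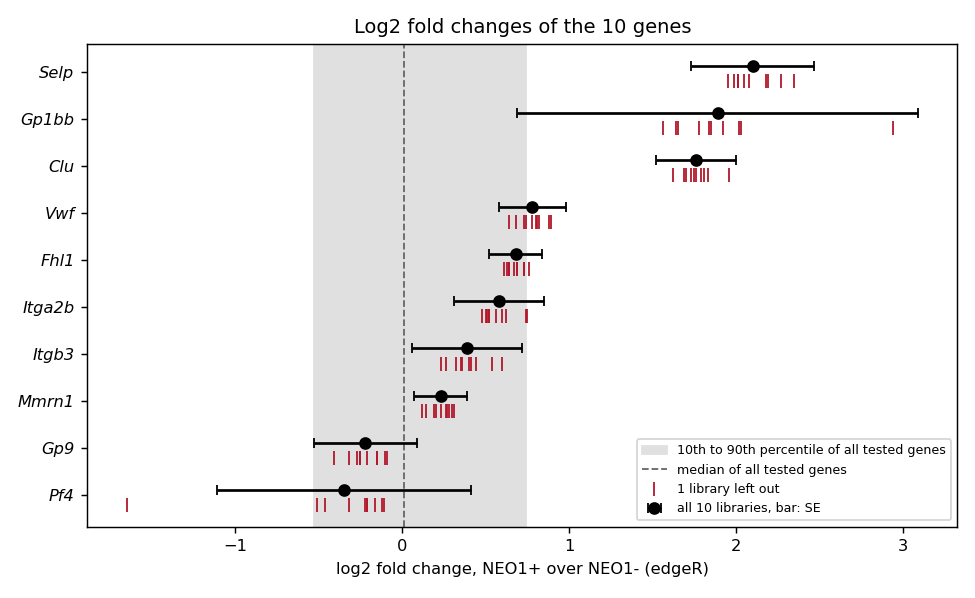
Log2 fold change of each gene, NEO1+ over NEO1- (horizontal axis; black points with SE, all 10 libraries), with the values after leaving out 1 library in turn (red ticks), over the 10th to 90th percentile of all tested genes (-0.53 to 0.74, grey). Selp, Gp1bb, Clu and Vwf (0.78) are above the grey range, and Pf4 moves to -1.65 without NEO1+ library 5.

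Levels of different genes were compared as CPM per kilobase of merged exons in GENCODE M21, which is longer than a single transcript where a gene has several. For Gp1bb most of these bases are shared with Sept5, as given above, so its place in the order depends on the counting. In NEO1- libraries the order of mean levels from high to low was Mmrn1 (50.5), Gp9 (36.9), Fhl1 (15.7), Pf4 (13.3), Clu (9.36), Itga2b (6.76), Vwf (3.67), Itgb3 (3.62), Selp (1.85) and Gp1bb (0.963 CPM per kilobase). Neighbours in that order overlapped over the libraries except for Itga2b (lowest 4.82) and Vwf (highest 4.72). In NEO1+ libraries Mmrn1 led at 59.3, then came Clu (31.8), Gp9 (31.6), Fhl1 (25.2), Pf4 (10.5), Itga2b (10.1), Selp (7.97), Vwf (6.29), Itgb3 (4.75) and Gp1bb (3.56 CPM per kilobase). There only Mmrn1 (lowest 45.3) and Clu (highest 37.5) did not overlap as neighbours. Clu thus stood at the fifth place in NEO1- and at the second in NEO1+ libraries, and Selp at the ninth and the seventh.

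Beyond the members, 5 lists of other genes of platelet biology and 1 list of genes known from aged stem cells were described, with 99 genes in all. Of these, 91 were tested, 0 passed the edgeR adjusted p of 0.05, and at an unadjusted p under 0.05 there were 6 higher and 2 lower in NEO1+, beside 6.60% of all genes in either direction. The 5 platelet lists had medians between -0.16 and 0.17 and held 3 of the 6 higher genes, and the aged stem cell list held the other 3. Other platelet receptors (15 of 18 tested) had a median log2 fold change of 0.10, with 8 above and 7 below 0. Of these, Tbxa2r, the thromboxane receptor, was at 37.6 ± 10.1 and 14.4 ± 10.2 CPM (SD, n = 5 each; log2 fold change 1.38, SE 0.49, edgeR adjusted p 0.586). The thrombin receptor F2r was at 90.1 ± 10.6 and 65.4 ± 21.2 CPM (edgeR adjusted p 0.766). Cd63, a granule membrane protein, was at 392 ± 20.6 and 457 ± 53.6 CPM (edgeR adjusted p 0.705). None of these 3 passed.

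Other granule and secreted proteins (11 of 14 tested) had a median of -0.16, with 3 above and 8 below 0. Timp3, an inhibitor of matrix proteases, was at 62.9 ± 22.5 CPM (NEO1+) and 19.2 ± 9.85 CPM (NEO1-; SD, n = 5 each; log2 fold change 1.71, SE 0.37), with an edgeR adjusted p of 0.248. Srgn (serglycin, which packs granule contents) had a log2 fold change of -0.17 (SE 0.08) and Nbeal2, needed for granule formation, -0.35 (SE 0.22), with edgeR adjusted p values of 0.784 and 0.876. Genes of the platelet cytoskeleton and signalling (15 of 15 tested) had a median of -0.05, with 5 above and 10 below 0. The adaptor gene Lat (-0.47, SE 0.20), Pdlim1 (0.22, SE 0.13) and Zyx, the focal adhesion protein zyxin (-0.15, SE 0.14) had the smallest p values, with edgeR adjusted p values of 0.721, 0.848 and 0.957.

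The transcription factors of megakaryocytes (18 of 18 tested) had a median of 0.13, with 11 above and 7 below 0, and none had an unadjusted p under 0.05. Gata2 was at 635 ± 43.9 and 564 ± 45.9 CPM (SD, n = 5 each; edgeR adjusted p 0.750), and Ldb1, a cofactor of GATA factors, stood at -0.20 as a log2 fold change (SE 0.11; edgeR adjusted p 0.807). In thrombopoietin signalling (14 of 15 tested; median 0.17, 10 above and 4 below 0) Stat5b, a transcription factor activated by cytokines, was at 107 ± 12.9 and 79.8 ± 14.1 CPM (SD, n = 5 each; edgeR adjusted p 0.604). The inhibitory adaptor Sh2b3 had a log2 fold change of 0.32 (SE 0.16) and the ubiquitin ligase Cbl of -0.49 (SE 0.27), with edgeR adjusted p values of 0.807 and 0.823.

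A list of genes known to rise in aged hematopoietic stem cells, to which Clu, Selp, Vwf and Fhl1 also belong but from which the 10 members were left out, had a median log2 fold change of 0.58, with 15 of 18 tested genes above 0 and 3 below. It was compiled from general knowledge with earlier results of these data known. Its members with the smallest p were Cavin2, a caveola protein, at 133 ± 5.62 and 72.9 ± 22.3 CPM (edgeR adjusted p 0.248), the sulfotransferase gene Sult1a1 at 174 ± 49.4 and 106 ± 27.0 CPM (0.437), and the prostaglandin receptor gene Ptger4 at 66.4 ± 5.30 and 41.7 ± 13.5 CPM (0.547; SD, n = 5 each). None passed, and in 3 of the 18 (Cavin2, Sult1a1 and Ehd3) every NEO1+ library was above every NEO1- library, beside 1.35% of all genes tested.

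**Figure D4:**
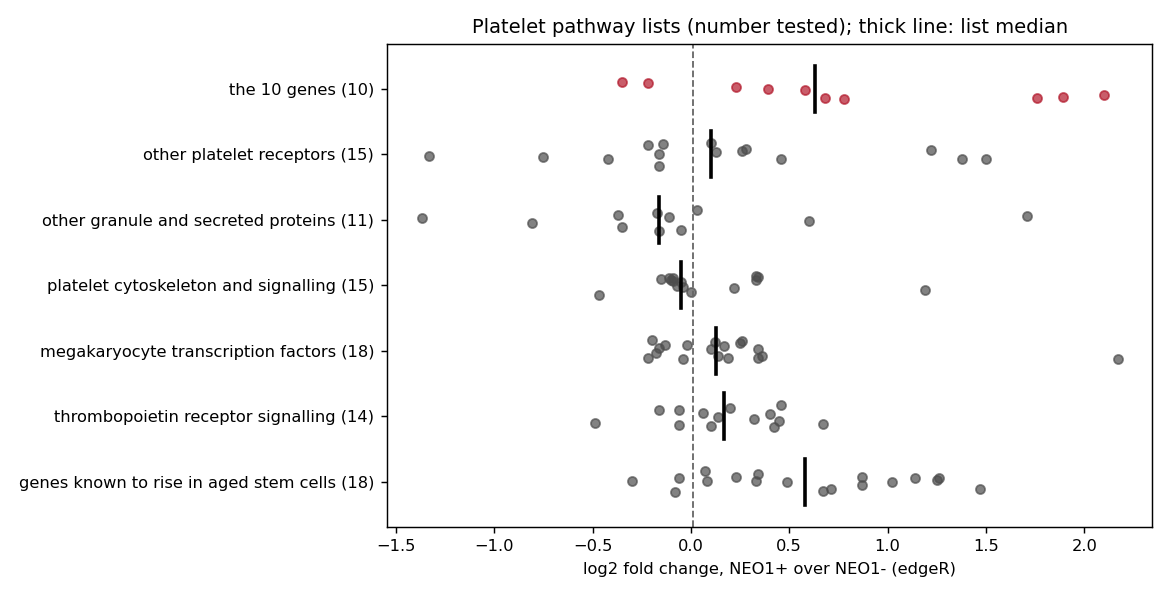
Log2 fold change, NEO1+ over NEO1- (horizontal axis), of each tested gene (points) in the 10-gene group and in 6 other lists, with the list median (thick line) and the median of all genes (0.01, dashed). Medians of the platelet lists lie between -0.16 and 0.17, and that of the aged stem cell list at 0.58.

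By profile over the 10 libraries (log2 CPM centred on each gene's own mean), the genes nearest to Vwf included Wdr12 and the mitotic kinesin gene Kif23, at root mean square distances of 0.22 and 0.23 log2 units. The nearest to Clu were Smtnl1, Epm2aip1 and the angiopoietin receptor gene Tek (0.41, 0.42 and 0.43), and to Selp the mitotic kinase gene Cdk1, Rasip1 and Pitpnm2 (0.53, 0.62 and 0.64). Among the other members, Fhl1 was nearest to Vwf (0.36) and to Clu (0.64), and Clu was nearest to Selp (0.71, at rank 9 of 12202 genes). The distances are descriptions over libraries that share the group difference.

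Cells of other types or states could carry some of these genes. In bulk samples, fewer cells of a type and less RNA per cell cannot be told apart. Markers of mature megakaryocytes and platelets (8 in the table, Gp6 at 0 in all libraries) summed to 17.7 to 58.4 CPM (NEO1+) and 39.9 to 51.2 CPM (NEO1-). The NEO1+ range covered that of NEO1-. NEO1+ libraries 1, 3 and 4 (17.7, 34.5 and 36.2 CPM) were below every NEO1- library, and NEO1+ library 5 was above all of them. Of the 6 markers tested, 2 had a log2 fold change above 0, and the median of the 6 was -0.29. Of 12 endothelial markers, Cdh5 and Sox17 were at 0 in all 10 libraries and Flt1, Plvap and Stab2 did not exceed 3.90 CPM. The endothelial list summed to 357 to 399 CPM (NEO1+) and 251 to 448 CPM (NEO1-). Tie1, which stem cells also express, was the highest of these markers at 185 ± 25.9 and 185 ± 87.3 CPM (SD, n = 5 each). Cldn5 was at 21.9 ± 7.33 and 5.96 ± 4.28 CPM (SD, n = 5 each) without overlap, and 5 of 7 tested endothelial markers had a log2 fold change above 0 (median 0.91). Erythroid markers summed to 1490 to 2230 and 1410 to 1720 CPM. Though these sums overlapped, 8 of 8 tested erythroid markers were above 0, with a median log2 fold change of 1.51. Of the globin genes listed, Hba-a2, Hbb-bs, Hbb-bt, Hbb-b1 and Hbb-b2 were at 0 in all libraries, but Hba-a1 was not. How reads that match several genes were counted is not given in the sources used here. The values of 0 are therefore not read as absence of globin RNA. Granulocyte and monocyte markers ranged from 160 to 2330 and from 146 to 2730 CPM, with 3 of 7 tested above 0 (median -0.13). Stromal markers summed to 2.77 to 32.1 and 0 to 13.7 CPM, with Lepr and Col3a1 at 0 in all libraries.

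Genes of the G2 and M phases separated the groups, with a sum of 252 to 457 CPM (NEO1+) and 72.1 to 190 CPM (NEO1-). All 10 of 10 markers were above 0, with a median log2 fold change of 1.74. The number of genes detected was also higher in NEO1+ libraries, as given above. With that number as a covariate, the log2 fold changes of Pf4, Itgb3 and Gp9 changed sign, to 0.57, -0.33 and 0.40. The part of either in the members' differences was not tested.

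**Figure D5:**
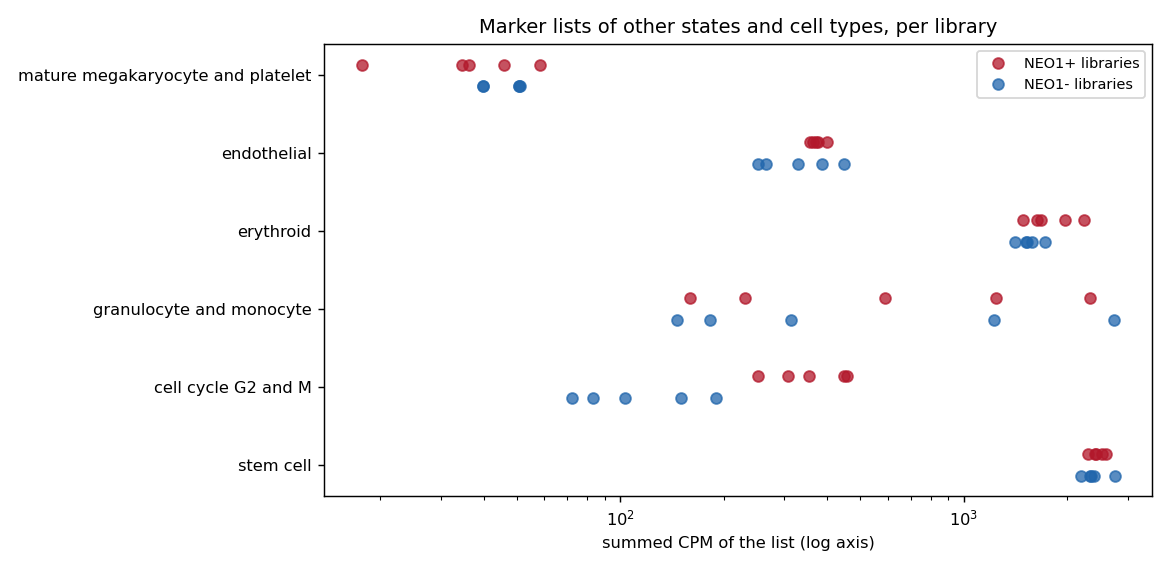
Summed CPM (horizontal log axis) of marker lists of other states and cell types in each NEO1+ (red) and NEO1- (blue) library. By their sums, only the G2 and M phase markers separate the groups among the 6 lists shown, at 252 to 457 and 72.1 to 190 CPM.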

How the data were processed

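RNA was reverse transcribed from poly(A) tails and amplified as full-length cDNA (Smart-seq2, 18 PCR cycles), per the labels' protocols. The authors deposited raw counts per gene symbol, and a table of log2 values, which equalled log2 of the count over 1 size factor per library, plus 1. Build mm10 (GRCm38), STAR 2.4 and DESeq2 1.22.2 are named in the submitters' processing notes; the counting tool, annotation and strand setting are not given in the sources used here.

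In R 4.3.3, edgeR 4.0.16 fitted group alone by robust quasi-likelihood, after TMM scaling, to the counts of the 12203 genes that filterByExpr kept, with Benjamini-Hochberg adjustment. Each SE was the unsigned log2 fold change divided by the root of its F statistic. The p values set each group difference against the spread between these libraries of pooled mice. The code was tested on simulated data. Exon lengths and loci are from GENCODE M21. Log2 CPM values used a prior count of 2. Alternatives used DESeq2 1.42.0 and limma 3.58.1. Members and lists were chosen with earlier results of these data known. Named list genes are the 3 of smallest p per list, none of which passed (some genes that the rule names are not reported here); Ehd3, Cldn5 and Sept5 were named after their values were seen. Libraries with the same number were not treated as pairs.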

Additional observations from a re-analysis of the deposited data

Results flagged for a closer look

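In 46 groups of 5 values (members, Neo1, marker sums and ratios), 2 held a library that stood apart by Dixon's criterion (the gap to the next value relative to the whole range, at 95%). By chance, 2.3 such groups would be expected. For Neo1, NEO1+ library 4 had a level of 3.65 log2 CPM, and the other NEO1+ libraries lay between 5.61 and 6.02. The ratio of Gp1bb to Gp9 counts per exon length was 0.06 in NEO1+ library 3, and the other NEO1+ libraries lay between 0.12 and 0.14.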

How the results depend on the processing

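Of 180 log2 fold changes of members under alternative settings, 175 kept their sign and stayed within 1 SD between libraries of the reported value. With genes detected as a covariate, Pf4, Itgb3 and Gp9 changed sign (0.57, -0.33 and 0.40) and Gp1bb moved to 3.76; without NEO1+ library 5, Pf4 moved to -1.65. The cause was not tested. Selp kept 1.95 to 2.35, Clu 1.62 to 1.96, Vwf 0.64 to 0.89 and Fhl1 0.61 to 0.76 when 1 library was left out.

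Genes called over the whole table numbered 0 in edgeR, with 806 at an unadjusted p under 0.05, 2 without a filter on low counts, 146 with DESeq2, 1 when limma-trend took the deposited log2 values, and 0 to 1 when 1 library was left out. The single call in the last case came without NEO1- library 1. Genes at an unadjusted p under 0.05 numbered 1834 without the filter, which tests more genes, 277 with the covariate, and 617 to 989 with 1 library left out. With the replicate block, edgeR called 0 genes, with 874 at an unadjusted p under 0.05, and DESeq2 called 742. The deviations of same-numbered libraries correlated at 0.00 to 0.04 over 12203 genes, and 3 of 5 NEO1+ libraries correlated best with their own number; the labels do not say that a number marks a shared source. Genes whose groups do not overlap numbered 303 (165 higher and 138 lower in NEO1+), 308 with library totals in place of TMM (269 and 39), with 3 members in both scalings, and 390 to 556 with 1 library left out, an alternative chosen after seeing the data, as was the shift of all genes under library totals. Fewer libraries make separation easier by construction. Among the members' values, only that of Gp1bb in NEO1- library 3 was a count of 0, where the floor was 0.102 CPM. That library held 31.9 M counts, and the cause of the 0 was not tested.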

Other observations

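Genes that flank the members on the chromosome were described as well. Of 20 protein-coding genes flanking the 10 members in GENCODE M21, 17 were tested. Of these, 10 had a log2 fold change above 0, beside 51.0% of all genes tested. The groups were separated by 1, beside 2.48% of all genes in either direction. Nothing is read from these counts. Cd9, a tetraspanin gene of platelets 51983 bases from Vwf, was at 185 ± 21.9 CPM (NEO1+) and 205 ± 21.7 CPM (NEO1-; SD, n = 5 each). F5, the gene of coagulation factor V 1812 bases from Selp, was at 7.68 ± 5.84 and 5.05 ± 4.39 CPM (SD, n = 5 each). Ppbp, a platelet chemokine gene 2372 bases from Pf4, was at 2.37 ± 1.68 and 6.14 ± 5.04 CPM (SD, n = 5 each). The gene that separated the groups was Cldn5, the neighbour of Gp1bb at 154444 bases. These genes were chosen for their position after the members' values were seen.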
